A study of Mus musculus with 9 samples.

Results

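Rod phototransduction genes were compared in the neural retina of Opn4 knockout and wildtype mouse pups at postnatal day 4 (P4). The set holds 10 genes, fixed by name, of the 53280 gene rows in the deposited count table, and rows of the second deposited table, which lists transcripts, were summed for the same symbols. The genes encode transducin (Gnat1, Gnb1, Gngt1), the cGMP phosphodiesterase of rods (Pde6a, Pde6b, Pde6g), the cyclic nucleotide-gated channel of rods (Cnga1, Cngb1), rod arrestin (Sag) and the kinase of the visual pigment (Grk1). The gene of the rod pigment itself is not in the set. All 10 were found in both tables and passed the filter on low counts.

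Opn4 encodes melanopsin, the photopigment of intrinsically photosensitive retinal ganglion cells, and the series asks how these cells influence the number of rods that form during development. Knockout pups lacked Opn4 on both chromosomes and wildtype pups were littermates from heterozygous crosses, all raised in about 300 lux. There were 5 knockout and 4 wildtype pools, each of 4 retinas from 2 pups of the same genotype, taken at zeitgeber hours 6 to 7, and no treatment beyond standard lighting was given. Each pool was sequenced as polyA RNA. The labels used here give neither strain nor sex, nor which exons the Opn4 allele lacks. They do not say whether pools came from different litters, so p-values measure the spread between these pools.

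In a rod, the light-activated pigment switches on transducin, whose alpha subunit relieves the phosphodiesterase of its inhibitory gamma subunit. The active enzyme lowers cGMP, the channels of the outer segment close and the cell hyperpolarises. Phosphorylation of the pigment by its kinase and binding of arrestin end the response. In the mouse, rods are born before and after birth, and their outer segments grow in the weeks that follow, so at P4 these genes are being switched on by factors such as Crx, Nrl and Nr2e3 in cells that do not yet have a mature light response. Gnb1 is the exception in the set, since many other cells also express it. Grk1 serves mouse cones as well as rods.

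Opn4 was low in every knockout pool, at 1.36 ± 0.29 CPM against 11.8 ± 0.30 CPM in wildtype (CPM, the count of a gene scaled to the depth of its pool; mean ± SD, n = 5 and 4; exact permutation p = 0.00794, the smallest that 5 against 4 pools can give). Total counts were 65.5 to 86.1 M per pool, where the study states a mean depth of 42.7 M reads. Some pools stood apart. The 13 listed lens genes, none at 0 in every pool, summed to 24.3 and 20.2 CPM in knockout pools 1 and 2. Their sum was 11.6 to 12.8 CPM in the remaining knockout pools and 10.4 to 11.7 CPM in wildtype. Wildtype pool 3 held 14.1 CPM of Xist, the RNA that coats the inactive X chromosome of females, where the other 8 pools held 705 to 1066 CPM. Calls of the members are therefore given with and without these pools. Rod markers were present in all pools, with Nrl, the factor that sets rod fate, at 738 ± 18 CPM in wildtype. Whole retina was measured, so more cells of a type and more RNA per cell cannot be told apart.

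The upstream sequences of these genes are shown first, because Crx and Nrl are known to act at sites upstream of photoreceptor genes. RefSeq windows on GRCm38.p6 covered 7 of the 10 genes. Gnat1, Pde6a and Pde6g had none. The 250 bases before the transcription start were searched on both strands for TAATCC, the core bound by Crx, and TGCTGA, a half-site of Nrl. The Crx core stood in 4 of the 7 genes, against 6.25% of 32851 windows of the same length over the genome, and the Nrl half-site in 2 of 7, against 16.1%. In other lists, 6 of 10 other rod cascade genes with a window held the Crx core, where 3 of 13 were called higher, and 1 of 10 outer segment and retinol genes did, where 8 of 12 were called higher. The core also stood in 1 of 6 cone phototransduction genes with a window, where none was called, and in 4 of 12 photoreceptor fate genes, where 2 of 12 were called higher. A listed gene counted if any of its windows held the core, while the share over the genome is per window. The 12 fate genes had 19 windows, the 10 other rod cascade genes 12 and the 6 cone genes 7, so these counts are not strictly comparable with that share. These matches are letters in a window and not measured binding, and their part in the values was not tested. The stretches below run 5′ to 3′ on the strand of the gene and end at the last base before the start, with matches in capitals. Cngb1 (chr8:95306586-95306835, minus strand) has 2 Crx cores close to the start, Sag (chr1:87803430-87803679, plus strand) has an Nrl half-site and a Crx core, Cnga1 (chr5:72642753-72643002, minus strand) has 1 Crx core far from it, and Pde6b (chr5:108388123-108388372, plus strand) has an Nrl half-site.
Cngb1: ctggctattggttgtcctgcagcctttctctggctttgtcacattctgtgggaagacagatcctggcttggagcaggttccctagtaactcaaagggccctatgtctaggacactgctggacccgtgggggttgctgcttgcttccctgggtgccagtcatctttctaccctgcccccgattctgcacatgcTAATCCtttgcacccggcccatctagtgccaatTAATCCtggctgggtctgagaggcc
Sag: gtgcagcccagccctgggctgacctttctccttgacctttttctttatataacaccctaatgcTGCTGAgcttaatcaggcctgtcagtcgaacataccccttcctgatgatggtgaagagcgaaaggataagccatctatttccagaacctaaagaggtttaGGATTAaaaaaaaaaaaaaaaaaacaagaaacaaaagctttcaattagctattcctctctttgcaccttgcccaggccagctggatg
Cnga1: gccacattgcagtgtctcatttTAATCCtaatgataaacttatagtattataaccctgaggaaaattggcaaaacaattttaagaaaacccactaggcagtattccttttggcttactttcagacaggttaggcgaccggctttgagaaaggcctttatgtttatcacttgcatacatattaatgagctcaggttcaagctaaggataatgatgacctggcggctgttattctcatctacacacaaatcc
Pde6b: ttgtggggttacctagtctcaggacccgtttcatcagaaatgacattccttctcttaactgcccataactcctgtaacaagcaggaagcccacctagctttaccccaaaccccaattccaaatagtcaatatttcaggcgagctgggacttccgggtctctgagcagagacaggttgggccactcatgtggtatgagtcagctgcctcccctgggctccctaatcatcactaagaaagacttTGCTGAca
Counted back from the start, the Crx cores of Cngb1 begin at −58 and −25, that of Cnga1 at −228 and that of Sag at −87. The Sag and Pde6b half-sites begin at −187 and −8. The Crx core of Gngt1 begins at −44, in bases that GENCODE M21 counts as the first exon, so that stretch is not printed. Gnb1 and Grk1 held neither match. The Cnga1 stretch overlaps an exon of another annotated Cnga1 transcript. The Sag and Gngt1 cores lie on the reverse strand, where they read GGATTA.

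At P4 the genes of this cascade were transcribed at very unequal levels. Values in TPM, scaled for depth and transcript length, allow genes to be compared with each other, and in wildtype the means per gene ran from 869.7 ± 22.9 TPM for Gnb1 to 5.24 ± 0.84 TPM for Pde6a (SD, n = 4). After Gnb1 came Sag with 539 ± 32.5 TPM, Pde6g with 299.7 ± 10.9 TPM, Pde6b with 125 ± 8.35 TPM, Cngb1 with 108 ± 2.87 TPM and Gngt1 with 91.7 ± 7.64 TPM. Cnga1 at 20.2 ± 1.79 TPM, Gnat1 at 12.98 ± 0.88 TPM and Grk1 at 12.2 ± 1.42 TPM followed. Among neighbours in this order the wildtype pools overlapped for Gnat1 and Grk1, and for no other pair. Arrestin and the inhibitory subunit of the phosphodiesterase followed the shared beta subunit, and the alpha subunits of transducin and phosphodiesterase stood near the bottom. In knockout the means ran from 1053 ± 44.4 TPM for Gnb1 to 8.02 ± 1.43 TPM for Pde6a (n = 5), and Grk1 (18.6 ± 4.46 TPM) lay above Gnat1 (17.3 ± 4.75 TPM).

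**Figure D1:**
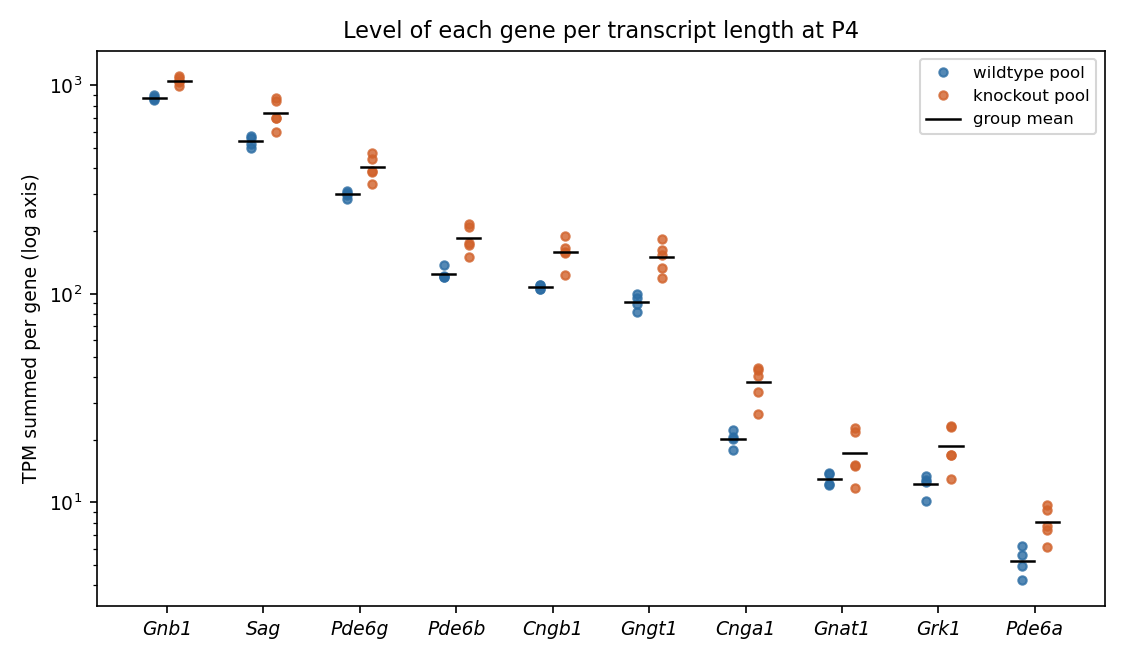
Level of each of the 10 genes in TPM, summed per gene, on a log axis, with a point for each wildtype (blue) and knockout (orange) pool and a bar for each group mean. Gnb1 and Sag are highest and Pde6a lowest in both genotypes, and Pde6b stands far above Pde6a although both encode catalytic subunits of the same enzyme.

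Of the 10 genes, 9 were higher in knockout, by 0.20 to 0.82 on the log2 scale, and none was lower. Gnat1, the transducin alpha subunit, was the exception and did not pass the test. The test was edgeR's quasi-likelihood test with a threshold of 0.05 on the p-value adjusted over all 21150 genes tested, of which 1.34% were called higher in knockout and 2.25% lower. The median log2 fold change of the 10 genes was 0.60, where the median of all tested genes was 0.0012, and all 10 values were positive, as were those of 50.4% of all tested genes. In 8 of the 10, every knockout pool lay above every wildtype pool, which held for 3.92% of all tested genes. The members were chosen with earlier results of these data known, and their counts are a description beside those background shares.

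**Figure D2:**
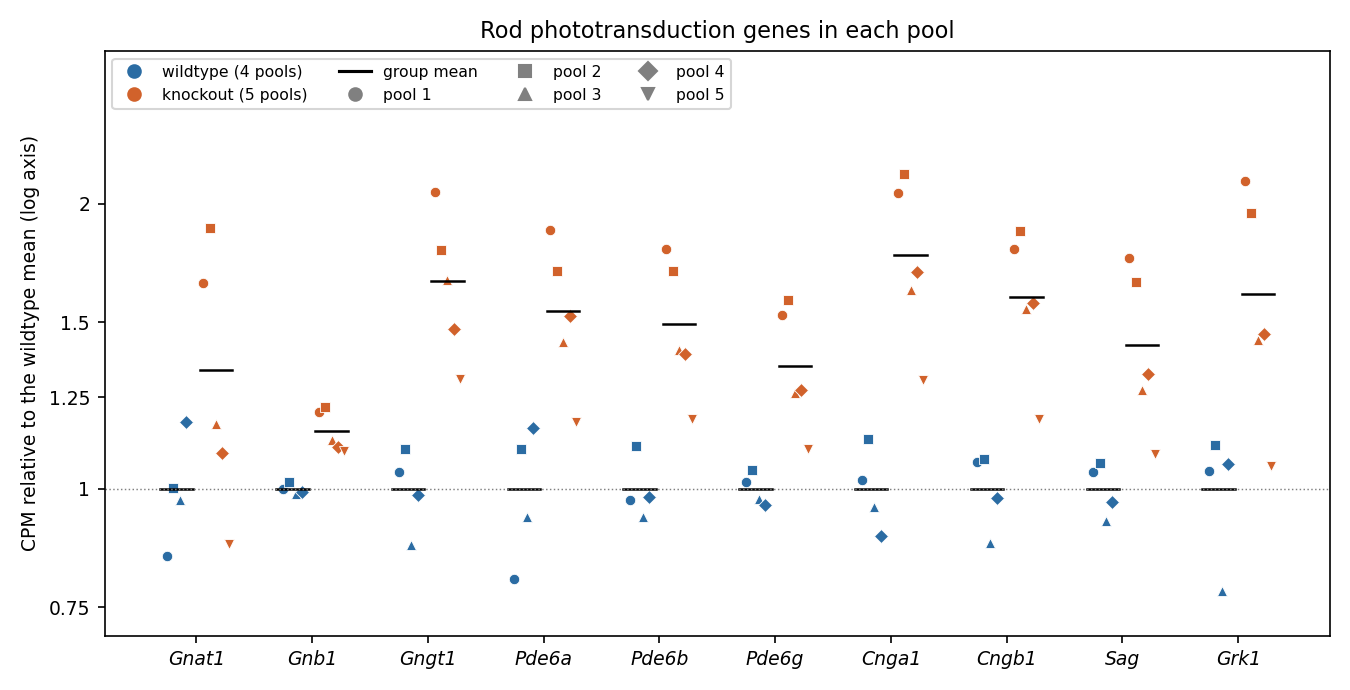
CPM of each gene in each pool, divided by the mean of the wildtype pools, on a log axis; symbols mark the pool number within its genotype, and bars the group means. Knockout pools 1 and 2 are the highest pools for all 10 genes, knockout pool 5 is the lowest knockout pool for all 10, and Gnb1 shows the smallest called change.

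Among the transducin genes the gamma subunit moved most. Its gene Gngt1 stood at 102, 88.6, 82.3, 73.0 and 64.7 CPM across knockout pools 1 to 5 and at 51.6, 54.6, 43.2 and 48.8 CPM across wildtype pools 1 to 4. The groups did not overlap (log2 fold change 0.73, SE 0.11, edgeR adjusted p = 0.00245). Gnb1, the beta subunit that many cell types share, lay at 1071 to 1190.5 CPM in knockout and 965 to 994 CPM in wildtype. Its rise was the smallest of the called members, 0.20 (SE 0.04, adjusted p = 0.0190 in edgeR), yet its pools did not overlap either. Gnat1 measured 21.1, 24.1, 15.005, 13.98 and 11.2 CPM in knockout against 10.9, 12.8, 12.5 and 15.1 CPM in wildtype. Only knockout pools 1 and 2 exceeded every wildtype pool, and the other 3 lay within the wildtype range (log2 fold change 0.42, SE 0.19, edgeR adjusted p = 0.298). Without knockout pools 1 and 2 the Gnat1 value was 0.06 (SE 0.13).

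The phosphodiesterase subunits rose together. Pde6b, a catalytic subunit, measured 356, 337, 278, 276 and 235 CPM in knockout and 194, 221, 186 and 195 CPM in wildtype, without overlap (log2 fold change 0.58, SE 0.10, edgeR adjusted p = 0.00632). Pde6a, its catalytic partner, lay at 15.9 to 25.3 CPM in knockout and 10.9 to 15.7 CPM in wildtype, a rise of 0.62 (SE 0.13, edgeR adjusted p = 0.0209). Pde6g, the inhibitory subunit, lay at 134 to 192 CPM in knockout and 117 to 127 CPM in wildtype (log2 fold change 0.43, SE 0.09, edgeR adjusted p = 0.0158). All 3 kept their groups apart, though in Pde6a the closest pools, knockout 5 and wildtype 4, differed by little. The call of Pde6a was lost when knockout pool 2, wildtype pool 1 or wildtype pool 3 was left out (up to 0.0682, edgeR), and that of Pde6g without wildtype pool 4 (0.0608).

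Both channel subunits rose, and Cnga1 had the largest change of the set. Cnga1, the subunit that can form channels by itself (chromosome 5, 72603696 to 72644275, minus strand, GRCm38), measured 62.9, 65.9, 49.7, 51.8 and 39.9 CPM in knockout and 31.3, 34.6, 29.3 and 27.3 CPM in wildtype. Every knockout pool exceeded the highest wildtype pool (log2 fold change 0.82, SE 0.13, edgeR adjusted p = 0.00247). Cngb1, the modulatory subunit (chromosome 8, 95239045 to 95306585, minus strand), whose gene also gives rise to the glutamic acid-rich proteins of the rod disc rim, measured 199, 208, 172, 174 and 132 CPM in knockout and 119, 120, 97.5 and 109 CPM in wildtype. Here too the groups stayed apart, with knockout pool 5 closest (log2 fold change 0.67, SE 0.11, edgeR adjusted p = 0.00382).

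The 2 genes that end the light response were higher with less certainty. Sag, rod arrestin (chromosome 1, 87803680 to 87845158, plus strand), measured 810.3, 765, 588, 611 and 504 CPM in knockout and 482, 492.95, 427 and 448 CPM in wildtype. Knockout pool 5 lay just above wildtype pool 2 (log2 fold change 0.50, SE 0.12, edgeR adjusted p = 0.0300). Grk1, the pigment kinase, measured 93.8, 86.7, 63.7, 64.7 and 47.0 CPM in knockout against 46.3, 49.4, 34.7 and 47.2 CPM in wildtype, and knockout pool 5 fell inside the wildtype range (log2 fold change 0.68, SE 0.17, edgeR adjusted p = 0.0452). Leaving out single pools removed the call of Sag in 5 of 9 cases, those of knockout pool 2 and each wildtype pool (adjusted p up to 0.0903). The call of Grk1 was lost in 8 of 9 cases, every one except knockout pool 5 (up to 0.126). Gnb1 lost its call without knockout pool 2, wildtype pool 1 or wildtype pool 4 (up to 0.0632).

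The calls of 4 genes, Gngt1, Pde6b, Cnga1 and Cngb1, held without any single pool. Removing 1 pool moved the count of called members to between 5 and 9, and the lowest count came without knockout pool 2, wildtype pool 1 or wildtype pool 4. Of all tested genes, 158 of 20918 were called higher without knockout pool 2 and 165 of 21565 without wildtype pool 1, against 284 of 21150 with all pools. The calls over all genes thus fell along with those of the members. Without wildtype pool 4 that number is not given here. It was 201 of 20924 without knockout pool 1, where 8 members were called, and 190 of 21644 without wildtype pool 2, where 7 were. Without knockout pool 5, where 9 members were called, it was 347 of 20893.

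The rise was graded across the knockout pools. Relative to the wildtype mean, the median member stood at 1.79-fold in knockout pool 1, 1.74-fold in pool 2, 1.41-fold in pool 3, 1.42-fold in pool 4 and 1.14-fold in pool 5, while the wildtype pools ran from 0.934-fold to 1.09-fold. Knockout pools 1 and 2 ranked as the 2 highest of the 9 pools for all 10 genes. The gradient was not particular to these genes. Over knockout pools 1 to 5 the 10 listed cone phototransduction genes summed to 910, 818, 751, 769 and 686 CPM. Their wildtype sums were 781 to 864 CPM. The coefficient of variation of CPM over knockout pools was 31.3% for Gnat1, 26.7% for Grk1 and 4.99% for Gnb1, and exceeded that over wildtype pools for all 10 genes. Centred on the mean of each genotype, each member followed the mean of the other 9 with a Pearson r of 0.78 (Pde6a) to 0.98 (Pde6b) over 9 pools, a description of pools that share library and depth.

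The lens genes and the progenitor genes moved over the same pools. The summed CPM of 16 progenitor and cell cycle genes was 1859.8, 1873, 2190.0, 2195 and 2361 over knockout pools 1 to 5 and 3049.7 to 3147 over the wildtype pools, so pools 1 and 2 were the lowest. Of these 16 genes 12 were lower in knockout and none higher, with a median log2 fold change of −0.55, and 11 were lower without knockout pools 1 and 2. Of 10 tested lens genes, 2 alpha crystallin genes, Cryaa and Cryab, were called higher and none was lower, and without knockout pools 1 and 2 neither was called. Cryaa stood at 4.65 and 3.28 CPM in knockout pools 1 and 2 and at 0.0812 to 0.737 CPM in the other 7. Summed pigment epithelium genes (8 listed, all detected) lay at 38.5 to 73.2 CPM in knockout and 55.5 to 71.7 CPM in wildtype. Of 11 bipolar cell genes 5 were higher and none lower, and 1 was higher without knockout pools 1 and 2. Of 6 red blood cell genes 5 were lower and none higher, and 2 were lower without those pools. Their sum was 337 CPM in wildtype pool 3, 110 to 205 CPM in the other wildtype pools and 73.8 to 98.5 CPM in knockout. Calls of these cell type lists are not given without wildtype pool 3. The part of these cell types, of lens tissue or of progenitor number in the rod gene values was not tested.

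**Figure D3:**
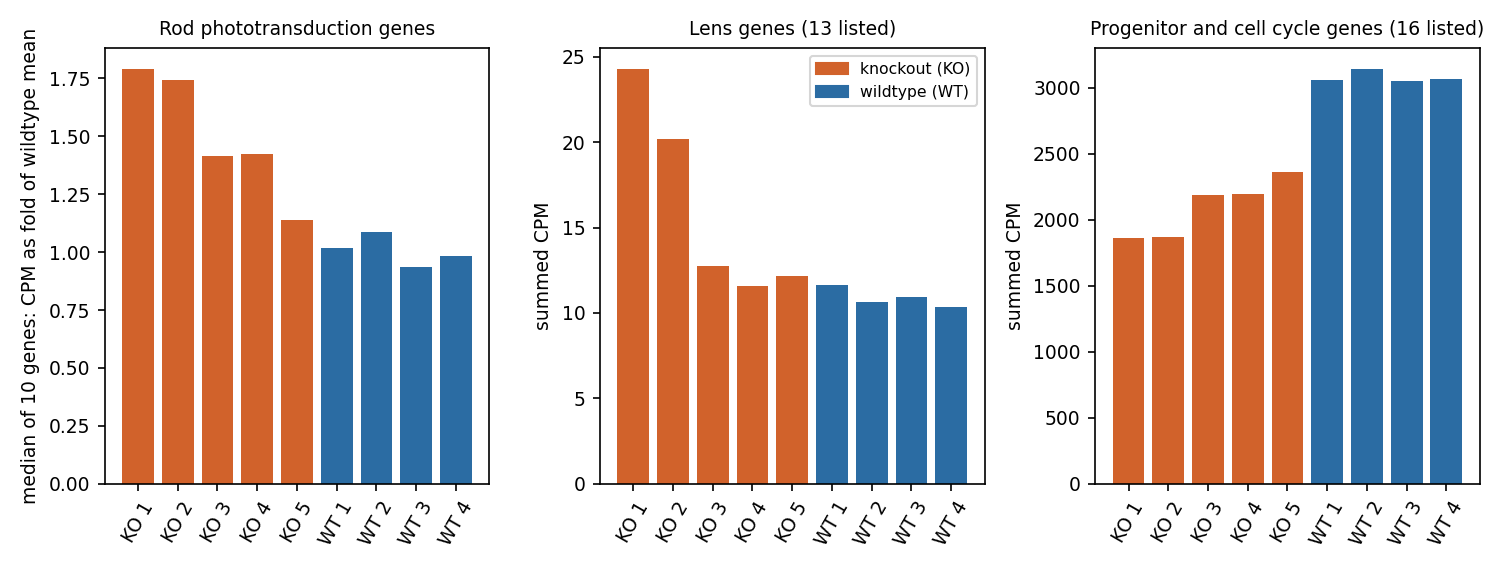
Bars for each knockout (KO, orange) and wildtype (WT, blue) pool showing the median fold of the 10 rod phototransduction genes against the wildtype mean, the summed CPM of the lens list and the summed CPM of the progenitor and cell cycle list. The rod gene bars fall from 1.79 in KO 1 to 1.14 in KO 5, lens CPM is high in KO 1 and KO 2 only, and progenitor CPM is lower in every knockout pool than in any wildtype pool.

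Without knockout pools 1 and 2, all 10 genes still had a positive log2 fold change, with a median of 0.40, and 5 were called, where 0.627% of all tested genes were called higher. These were Cnga1 (0.62, SE 0.10, edgeR adjusted p = 0.00760), Gngt1 (0.56, SE 0.09, 0.00679), Cngb1 (0.52, SE 0.10, 0.0167), Pde6b (0.40, SE 0.07, 0.0125) and Pde6g (0.27, SE 0.06, 0.0310). Sag, Grk1, Pde6a and Gnb1 no longer passed, at 0.29, 0.39, 0.46 and 0.15 (adjusted p = 0.0596, 0.173, 0.111 and 0.0952). Without wildtype pool 3, the pool low in Xist, 6 members were called, where 1.01% of all tested genes were called higher.

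The second quantification gave the same direction for every gene with fewer calls. In gene-summed TPM, tested with limma-trend on log2(TPM + 0.5), 6 of the 10 were higher, against 0.621% of all genes tested, with a median difference of 0.55. The 6 were Cnga1 (0.86, SE 0.14, limma adjusted p = 0.0119), Gngt1 (0.70, SE 0.11), Pde6b (0.55, SE 0.10), Cngb1 (0.54, SE 0.10), Pde6g (0.43, SE 0.09) and Gnb1 (0.27, SE 0.05). The main transcript of Cnga1 alone measured 0.80 (SE 0.13, limma adjusted p = 0.0576 over all transcripts). Sag and Pde6a fell short (limma adjusted p = 0.0593 and 0.0840). In TPM the groups did not overlap for these 6 and Sag, which held for 3.92% of all genes tested. In the authors' deposited table, effects were positive in knockout for all 10 genes and 3 had a q under 0.05, where 0.648% of listed genes did in that direction. These were Gngt1 (log2 effect 0.60, q = 0.00847), Gnb1 (0.26, q = 0.0190) and Cnga1 (0.72, q = 0.0486), in the authors' deposited table. Gngt1 and Cnga1 therefore passed in the counts, with and without knockout pools 1 and 2, in TPM and in the authors' table.

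**Figure D4:**
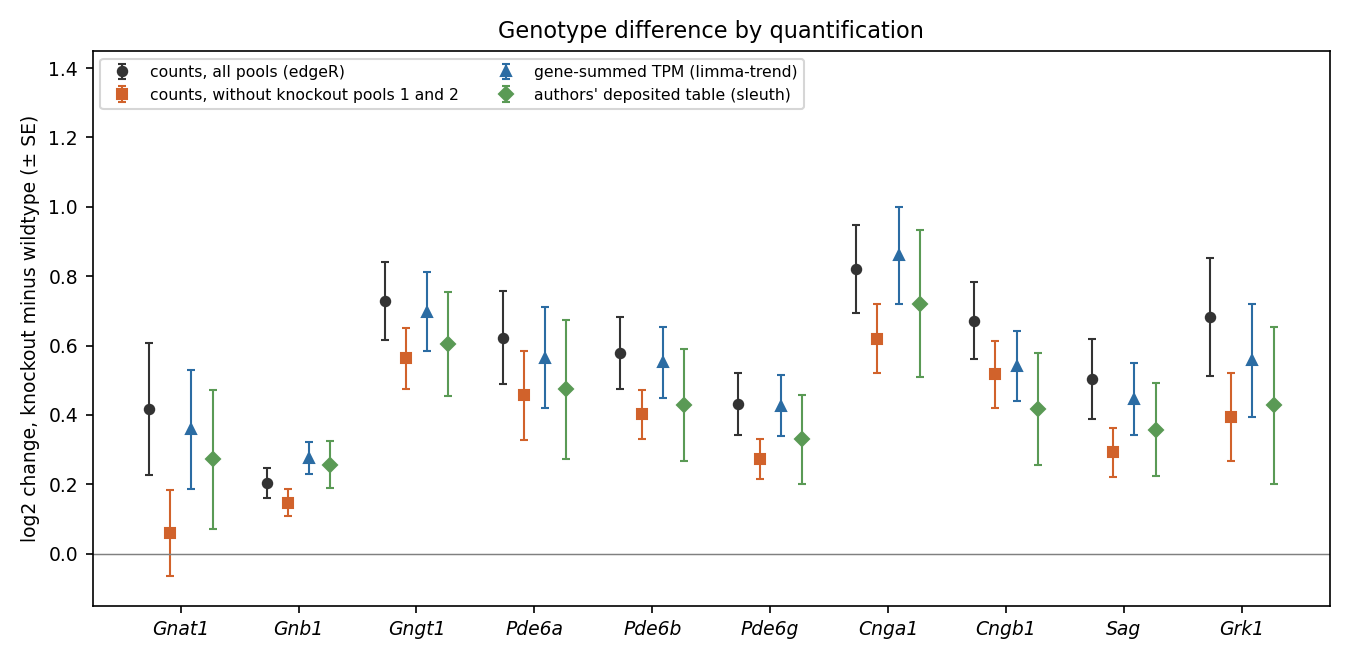
Log2 change of each gene, knockout minus wildtype, with its SE, from the counts with all pools, the counts without knockout pools 1 and 2, gene-summed TPM and the authors' deposited table. All points lie above 0; the values without knockout pools 1 and 2 are the lowest of each gene except for Cngb1, and that of Gnat1 is 0.06.

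The TPM table lists 54 transcripts of these genes, without transcript names, of which 38 reached 1 TPM in at least 4 pools. Among these 38, 2 were called higher in knockout and none lower by limma-trend, where 0.0539% of all tested transcripts were called higher, and 35 had a positive difference, which held for 48.7% of all tested transcripts. At an unadjusted p under 0.05, 19 were higher, where 4.58% of all tested transcripts were. The called transcripts were the most abundant of Cngb1, with 46.7% of the TPM of that gene (0.68, SE 0.10, limma adjusted p = 0.0404), and the second of Gnb1, with 20.6% (0.32, SE 0.04, 0.0349). The Cngb1 transcript measured 72.2, 87.6, 83.6, 78.4 and 61.2 TPM in knockout and 51.1, 49.0, 45.1 and 44.8 TPM in wildtype, with no overlap. The next Cngb1 transcript, with 18.9% of the gene, measured 28.1 ± 3.86 TPM in knockout and 23.0 ± 3.42 TPM in wildtype (adjusted p = 0.505 by limma). For Gngt1, Pde6a, Sag, Pde6g, Grk1, Cnga1 and Pde6b a single transcript held 90.3 to 99.7% of the gene.

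Within the complexes, subunit ratios were compared pool by pool on log2(TPM + 0.5), with exact two-sided permutation tests adjusted over 3 ratios. No difference was detected for Pde6a to Pde6b, whose log2 ratio was −4.45 ± 0.05 in knockout and −4.46 ± 0.21 in wildtype, a difference of 0.01 (SE 0.11, exact p = 0.849). Cnga1 rose relative to Cngb1, from −2.39 ± 0.10 to −2.07 ± 0.15 (difference 0.32, SE 0.08, exact p = 0.00794, adjusted 0.0238), and Gngt1 relative to Gnat1, from 2.77 ± 0.11 to 3.11 ± 0.19 (0.34, SE 0.10, exact p = 0.0317, adjusted 0.0476). With CPM in place of TPM these differences were 0.14 and 0.35 and neither passed (adjusted exact p = 0.119 for both), so the shift of Cnga1 against Cngb1 rests on the TPM table. In knockout pool 3 Cnga1 summed to 44.3 TPM, the highest of all pools, of which its main transcript held 31.5 TPM. Only 1 of the 6 listed Cnga1 transcripts reached the expression filter, so the remainder lay in the others. In CPM that pool stood at 49.7, below knockout pools 1, 2 and 4. Both ratios passed without knockout pool 2 and without knockout pools 1 and 2 together, and neither passed without any other single pool, where Cnga1 to Cngb1 ran from 0.26 (without knockout pool 3) to 0.35. With so few pools, a ratio at the smallest exact p passes over 3 ratios only if another is low as well. The groups of Cnga1 to Cngb1 did not overlap in TPM, so its lost call does not by itself show that it is unstable.

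No cone phototransduction gene passed the test. Cones use their own forms of most of these proteins, and of 9 tested genes edgeR called none, with a median log2 fold change of −0.02. At an unadjusted p under 0.05 there were also none, where 16.5% of all tested genes passed, so the count of 0 among 9 genes says little by itself. To test the difference itself, each rod gene was set against its cone counterpart in the same pool, in 9 pairs. Many other cells express Gnb1, so its pair with Gnb3 does not set rods against cones alone. The difference between genotypes was positive in all 9 and passed an exact permutation test, adjusted over the pairs, in 6. The largest was Cnga1 to Cnga3, whose log2 ratio was 2.46 ± 0.36 in knockout and 1.57 ± 0.22 in wildtype (difference 0.89, SE 0.19, exact p = 0.0159, adjusted 0.0286). With CPM in place of TPM that difference was 0.81. Gngt1 to Gngt2 differed by 0.77 (SE 0.18, exact p = 0.00794, adjusted 0.0286), Pde6a and Pde6b to Pde6c by 0.71 (SE 0.27) and 0.70 (SE 0.18), Cngb1 to Cngb3 by 0.50 (SE 0.17) and Gnb1 to Gnb3 by 0.32 (SE 0.08). Gnat1 to Gnat2, Pde6g to Pde6h and Sag to Arr3 differed by 0.32, 0.22 and 0.27 without passing (adjusted exact p = 0.0816, 0.107 and 0.317).

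**Figure D5:**
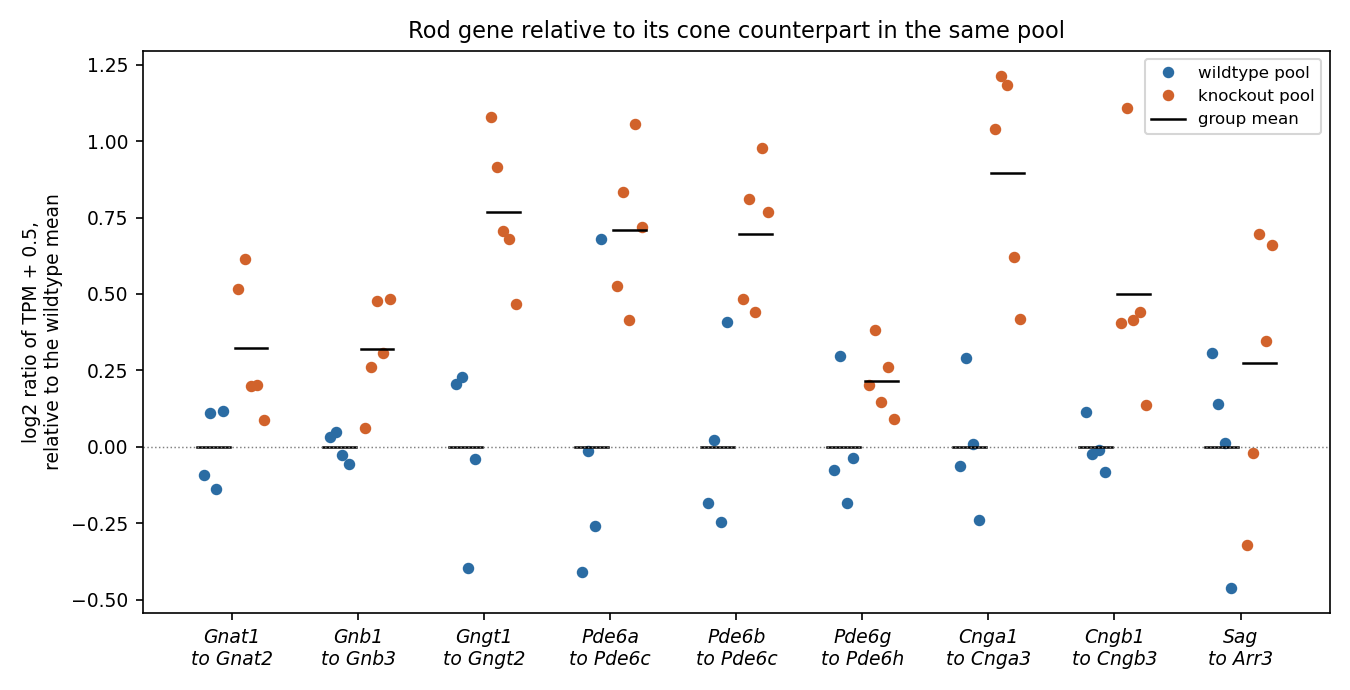
Log2 ratio of each rod gene to its cone counterpart (TPM + 0.5 each) in every pool, relative to the wildtype mean of the pair; points are pools and bars group means. Knockout pools lie above all wildtype pools for 5 pairs, Gnb1 to Gnb3, Gngt1 to Gngt2, Pde6b to Pde6c, Cnga1 to Cnga3 and Cngb1 to Cngb3.

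Without knockout pools 1 and 2 the 9 differences ran from 0.16 to 0.74 and all stayed positive. In the counts of those pools the 9 tested cone genes had a median log2 fold change of −0.09, with none called. Each ratio holds the cone value as well as the rod value, and how much each contributed to the differences was not tested. No pair then passed, and 3 against 4 pools cannot give an exact p below 0.0286. Leaving out a single pool, 6 pairs passed without knockout pool 5 and none without any of the other 8 pools. The smallest exact p is then 0.0286 (4 against 4 pools) or 0.0179 (5 against 3). Adjusted over 9 pairs, a pair at that value passes only if several others reach low values too. The loss of calls is therefore partly set by the number of pools.

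A minority of the other rod cascade genes passed the test. Of 13 that regulate it (the shut-off complex of transducin, cGMP synthesis, calcium feedback, chaperones), 3 were higher and none lower, all 13 had positive values and the median was 0.30. Rgs9bp, the membrane anchor of the complex that shuts off transducin, measured 0.65 (SE 0.13, edgeR adjusted p = 0.00993), a call that remained whichever pool was removed and without knockout pools 1 and 2 (0.0276). Pdc, phosducin, which binds transducin beta and gamma, measured 0.40 (SE 0.08, adjusted p = 0.0121 in edgeR), likewise in all these fits (0.0433 without knockout pools 1 and 2). Gucy2f, a photoreceptor guanylate cyclase, measured 0.89 (SE 0.21, edgeR adjusted p = 0.0341) and lost its call without any of 8 single pools (up to 0.114). Of 12 outer segment and retinol genes, 8 were higher and none lower, with a median of 0.43, and 5 were higher without knockout pools 1 and 2. Abca4, the retinal transporter of disc rims, measured 0.51 (SE 0.07, edgeR adjusted p = 0.00177) and Rp1l1, an axoneme protein, 0.60 (SE 0.10, 0.00500). Its relative Rp1 measured 0.65 (SE 0.11, edgeR adjusted p = 0.00503). The disc rim genes Prph2 and Rom1 measured 0.45 (SE 0.08) and 0.33 (SE 0.06), and Prcd, a disc protein, 0.41 (SE 0.08; edgeR adjusted p = 0.00699, 0.0114 and 0.00965). Rdh12 is given with the genes of similar profile. Impg2, a proteoglycan of the matrix around photoreceptors, measured 0.39 and lost its call without any of 8 single pools (up to 0.0964). Of 12 photoreceptor fate genes, Nrl and Neurod1, a factor of photoreceptor precursors, were higher by 0.29 and 0.22 and none was lower, with a median of 0.16. The Nrl call was lost without wildtype pool 1 or 4 (up to 0.0563) and without knockout pools 1 and 2 (0.0512). The Neurod1 call was lost in 7 of 9 single-pool fits (up to 0.118) and without knockout pools 1 and 2 (0.117). Crx, named after its values were seen because its core was searched, did not pass and measured 0.22 (edgeR adjusted p = 0.110).

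Among 15735 other genes with a mean of at least 1 CPM, those whose deviations from the genotype means most resembled the mean deviation of the members over 9 pools were Wdr17, Rdh12, Stx3, Usp15 and Fam102a, with a Pearson r of 0.977 to 0.982. Since genotype means were removed first, these genes need not differ between genotypes. Rdh12, a retinol dehydrogenase of photoreceptors, was higher in knockout (0.76, edgeR adjusted p = 0.0101), as was Stx3, a syntaxin of ribbon synapses (0.35, 0.0260). Wdr17, Usp15 and Fam102a measured 0.30, 0.07 and −0.16 and did not pass (edgeR adjusted p = 0.225, 0.476 and 0.542).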

How the data were processed

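Neural retina RNA of 5 knockout and 4 wildtype pools was measured. The members, lists and tests were chosen with earlier results of these data known. Among the 3 deposited tables is one of gene counts, which the authors left unnormalized as read from its values; no source used here names the counting program. The second holds TPM per transcript from kallisto 0.46.1 on GRCm38 after Trimmomatic 0.39, per the submitters' processing notes, and its deposited column sums of 953963 to 1083980 show a rescaling that is not described. Rows without a usable symbol (1861 of 118489, 0.754 to 0.979% of TPM) were left out. The third is the authors' comparison by sleuth 0.30.8 (processing notes), whose p-value and q-value columns are named as such in the deposited header; its deposited effect is on the natural log scale, positive where wildtype is higher as read from Opn4, and was converted to log2, knockout minus wildtype.

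Counts were tested with edgeR 4.0.16 in R 4.3.3 (filterByExpr, TMM, quasi-likelihood F test, two-sided, Benjamini-Hochberg over all genes); CPM of members are TMM-scaled, CPM of Opn4, Xist and list sums use total counts, and an SE is the fold change over the root of F. TPM was tested with limma 3.58.1 (trend) on log2(TPM + 0.5), which understates low genes, for genes or transcripts with at least 1 TPM in at least 4 pools. Ratios used exact permutation over 126 choices of pools. On simulated counts for 20681 genes of this comparison, edgeR recovered 50% of genes changed by 1.5-fold and 73.8% changed by 2-fold. The same simulation gave 14 false calls, beside 33, 48 and 58 genes recovered at 1.5-fold, 2-fold and 3-fold. Named genes were all members, pathway list genes past the test, cone paralogs, marker genes a result turns on and the 5 genes of most similar profile; Crx was added after its values were seen. GENCODE M21 and BLAST 2.17.0 were checked: no member shared exons with another gene or had a copy with 95% identity or more along 50% or more of a transcript. No 2 pools agreed within sampling noise (chi-square per degree of freedom at least 12.1). Same-numbered pools did not deviate together, so no block was used.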

Additional observations from a re-analysis of the deposited data

How the results depend on the processing

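In the counts, 9 members were called under RLE and upper quartile scaling, in DESeq2 1.42.0, with a mean CPM of at least 1, and with the replicate number as a block, which drops knockout pool 5 from the contrast; a robust fit called 7. Calls numbered 4 with no filter on low counts, where 34490 genes were tested, and 5 without knockout pools 1 and 2. Single-pool removal gave 5 to 9. DESeq2 called 1488 genes of all tested, edgeR 760, and without knockout pools 1 and 2 it was 486. Called higher among all tested genes were 284 in edgeR, 668 in DESeq2, 313 in the robust fit and 365 with the replicate block. Under RLE and upper quartile scaling it was 288 and 264 of 21150, and 327 of 15750 with a mean CPM of at least 1. With no filter it was 152, and without knockout pools 1 and 2 it was 134. In gene-summed TPM the count of 6 became 3 with no filter, 2 without knockout pools 1 and 2, and 2 to 9 without single pools, and 8 with the replicate block. For these TPM settings the calls over all genes are not given here, so these counts cannot be read against a background share. No member changed sign under any of these settings, in counts or in TPM. Of the rod to cone pairs, 6 passed at pseudocounts of 0.1 and 1 and 7 with CPM, against 0 to 6 without single pools and 0 without knockout pools 1 and 2; none changed sign. Of the subunit ratios, 0 passed with CPM and 0 to 2 without single pools. With fewer pools the smallest exact p rises to 0.0286 (4 against 4) or 0.0179 (5 against 3) before adjustment. The near-zero difference of Pde6a to Pde6b turned to −0.0231 at a pseudocount of 1, and without single pools ran from −0.0625 (wildtype pool 1) to 0.105, with −0.00325 without knockout pool 4. The cause was not tested. Same-numbered pools correlated at −0.03 to 0.0061 and none matched its own number best; with the replicate block 888 genes were called.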
